A study of Drosophila melanogaster with 2 samples.

Results

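Stat92E occupancy was examined at 7 genes of the fruit fly sex determination pathway: Sxl, sisA, sc, dpn, gro, tra and msl-2. The genes were chosen by name for their place in the pathway, and they make up 7 of the 13945 protein-coding genes on the chromosome arms of the annotation. Of them, 3 (Sxl, sisA and sc) lie on X, among 2196 protein-coding genes there. For each gene, every peak summit inside the gene span or within 5 kb of it was taken. The chromatin came from 1 group of embryos, 0 to 12 h old, males and females together, from a transgenic line with eGFP fused to the C terminus of Stat92E. The promoter that drives the transgene is not given in the sources used here. Fragments of 200 to 800 bp were precipitated with an antibody against GFP according to the sample descriptions, although the antibody label names Stat92E. Both biological replicates, numbered 1 and 3, come from this group, and no second genotype, sex or stage was compared, so no test between groups could be made.

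Sex in Drosophila is set by the number of X chromosomes. Proteins from X-linked signal element genes, among them sisA (a bZIP factor), sc (a bHLH activator) and upd1 (a JAK/STAT ligand), raise transcription of Sxl from its early promoter in embryos with a pair of X chromosomes, for a short time before the cells form. The autosomal repressor Dpn and the maternal corepressor Gro act against it. Later, Sxl is transcribed from the late promoter in both sexes. Only in females does Sxl protein, an RNA-binding splicing regulator, keep its own transcripts in the productive form, by skipping the male exon. It then directs splicing of tra, a splicing factor gene above dsx and fru, and blocks translation of msl-2, which encodes a subunit of the dosage compensation complex of males. Stat92E, the transcription factor at the end of the JAK/STAT pathway, is known to act on Sxl through sites near the early promoter.

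Peaks were available as 4 lists: a reproducible set of 3603 peaks, a pooled list, and a list for each replicate, the last 3 holding 30000 peaks each. A summit is the position of highest signal in a peak, and its rank counts down from 1 for the highest signal score in its list. Every reproducible peak was also a pooled peak, and the set took ranks 1 to 3603 of the pooled list. Signal scores have no stated unit and are not on 1 scale across lists, and no read counts are part of the lists, so depth is unknown. The lowest −log10 q-value was 0.396 in the pooled list, 0.331 in replicate 1 and 0.447 in replicate 3, so the weakest peaks listed carry little statistical support.

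A STAT site here is TTCNNNGAA, with a spacer of 3 bases between TTC and GAA, or the same with a spacer of 4 bases. Both patterns read the same on either strand. Below is the stretch upstream of the early start of Sxl that holds 3 sites with a 3-base spacer, followed by the 101 bp centred on the summits that the results turn on. All come from RefSeq (Release 6, which is dm6) and run in the direction of transcription of the named gene. STAT sites are in capitals, except at sc, where the capitals mark CAGGTAG, the sequence bound by the early activator Zelda, on either strand.
Sxl, upstream of the early start, X:7093118-7093323, minus strand: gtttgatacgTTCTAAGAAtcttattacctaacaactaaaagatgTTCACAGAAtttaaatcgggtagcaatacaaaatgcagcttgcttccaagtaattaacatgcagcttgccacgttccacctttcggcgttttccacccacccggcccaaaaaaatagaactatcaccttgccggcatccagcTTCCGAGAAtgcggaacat
Sxl, summit at the late start, X:7098082-7098182, minus strand: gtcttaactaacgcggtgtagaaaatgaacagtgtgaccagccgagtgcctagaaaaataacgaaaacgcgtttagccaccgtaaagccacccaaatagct
Sxl, summit inside the gene, X:7096706-7096806, minus strand: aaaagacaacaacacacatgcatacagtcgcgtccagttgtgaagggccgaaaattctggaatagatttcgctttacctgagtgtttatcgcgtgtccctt
gro, strongest summit, 3R:26042472-26042572, plus strand: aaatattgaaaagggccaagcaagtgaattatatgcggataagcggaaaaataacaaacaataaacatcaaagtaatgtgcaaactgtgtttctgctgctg
tra, summit at the start, 3L:16590985-16591085, minus strand: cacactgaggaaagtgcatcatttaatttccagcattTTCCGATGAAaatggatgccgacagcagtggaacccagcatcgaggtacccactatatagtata
sc, summit at the start, X:395932-396032, plus strand: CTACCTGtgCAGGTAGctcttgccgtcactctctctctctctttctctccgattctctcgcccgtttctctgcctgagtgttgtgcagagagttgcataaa

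Reproducible summits were found at Sxl, gro and tra, and none at sisA, sc, dpn or msl-2. These 3 of 7 genes are 42.9%, against 42.5% of all protein-coding genes with a reproducible summit in the span or within 5 kb, and among the genes on X it was 1 of 3 against 33.3%. The share of the 7 genes was thus near the background. Sxl had 3 reproducible summits, tra 3 and gro 2, 8 in all, of which 4 lay inside the gene span. At least 3 such summits were found in 6.53% of all protein-coding genes and at least 2 in 17.2%, counts that also depend on the length of the window. In the pooled list each of the 7 genes had summits, 55 in all, against 76.6% of protein-coding genes with at least 1. The replicate 1 list held 59 summits at these genes and the replicate 3 list 49. Of the 55 pooled summits, 37 had a peak over them in both replicates, 10 in replicate 1 only, 6 in replicate 3 only and 2 in neither. Neighbouring pooled summits can share a replicate peak, as did 4 of the 47 matched in replicate 1 and 10 of the 43 matched in replicate 3. Of the 55, 21 had a −log10 q-value below 1.

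**Figure D1:**
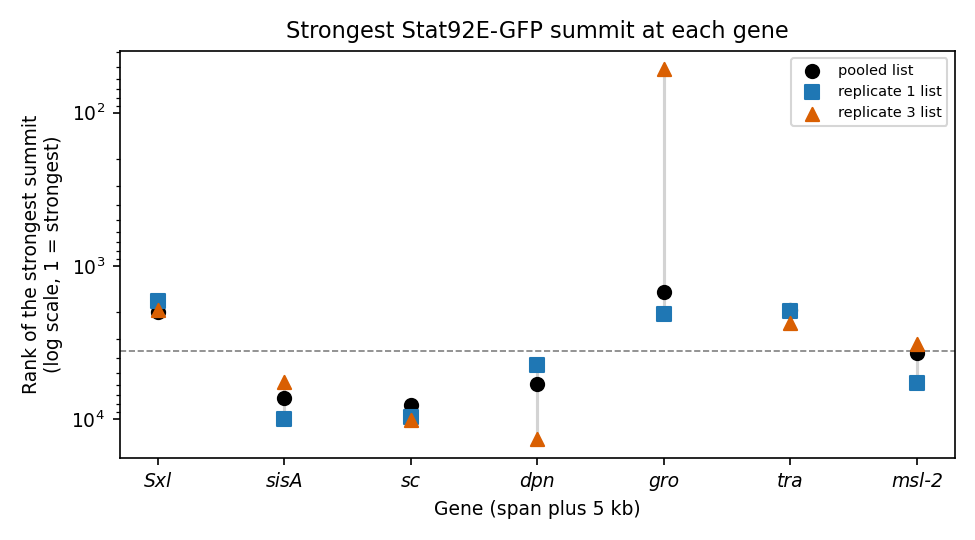
Rank of the strongest summit in the span or within 5 kb of each gene (vertical axis, log scale, 1 = strongest) in the pooled list, the replicate 1 list and the replicate 3 list. The dashed line is the lowest rank of the reproducible set, 3603: Sxl, gro and tra lie above it in all 3 lists, msl-2 in replicate 3 only, and sisA, sc and dpn in none. The replicate 3 points of gro and msl-2 are peaks at E(spl)m7-HLH and Pif1.

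Sxl (FBgn0264270) spans X:7074550-7098053 on the minus strand and has 4 annotated starts. The late start, at position 7098053, is shared by 18 transcripts. The early start, at 7092883 and 5170 bp downstream of the late one, belongs to 4 transcripts, Sxl-RC, Sxl-RN, Sxl-RO and Sxl-RR, which all leave out the exon at 7088578-7088767 that 9 of the other transcripts hold. The remaining starts lie 285 bp (Sxl-RG) and 987 bp (Sxl-RA and Sxl-RE) downstream of the late one.

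Stat92E-GFP lay at the late start of Sxl. The reproducible summit at 7098132, 79 bp upstream of the late start, had a signal of 153.2 and ranked 2024 in the pooled list. Replicate 1 placed its summit, of rank 1689, 85 bp upstream of the late start. Replicate 3 listed 2 summits there, 1 of rank 3701 that lay 54 bp downstream of the late start and 1 of rank 5547 that lay 152 bp upstream, the nearer to the pooled summit. Each list thus had a summit within 100 bp of the late start.

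The strongest pooled summit of Sxl lay inside the gene, at 7096756, in an intron 1297 bp downstream of the late start and 310 bp downstream of the start of Sxl-RA and Sxl-RE. It ranked 2007 in the pooled list with a signal of 153.7, 2534 in replicate 1 and 2097 in replicate 3, and the summits of the replicates lay 33 bp and 3 bp from the pooled one. The third reproducible summit, at 7101765, lay 3712 bp upstream of the late start in an intron of CG4615, the neighbouring gene, 535 bp from the start of CG4615. Its signal was 124.2, near the minimum of the reproducible set (120.8), and its ranks were 3361 in the pooled list, 4883 in replicate 1 and 1944 in replicate 3. This summit was the strongest at Sxl in replicate 3, while the one at the late start was the strongest in replicate 1.

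No reproducible or pooled summit lay near the early start of Sxl. The nearest reproducible summit was the one inside the gene, 3873 bp upstream of the early start. The nearest pooled summit, at 7094637, lay 1754 bp upstream, ranked 15509 and had a −log10 q-value of 1.07. Only replicate 1 had a summit at the early promoter itself, at 7093024, 141 bp upstream of the start. That peak ranked 20518 of 30000, with a signal of 24.3 and a −log10 q-value of 0.626. In replicate 3 the nearest summit lay 1477 bp upstream, with rank 28895 and a −log10 q-value of 0.473. The early promoter is used for a short part of the 0 to 12 h window and in female embryos, so the lists, made from all ages and both sexes together, do not show its occupancy at the time of use. No binding, binding in few embryos and weak binding in each cannot be told apart in such a mixture, and read depth is unknown.

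**Figure D2:**
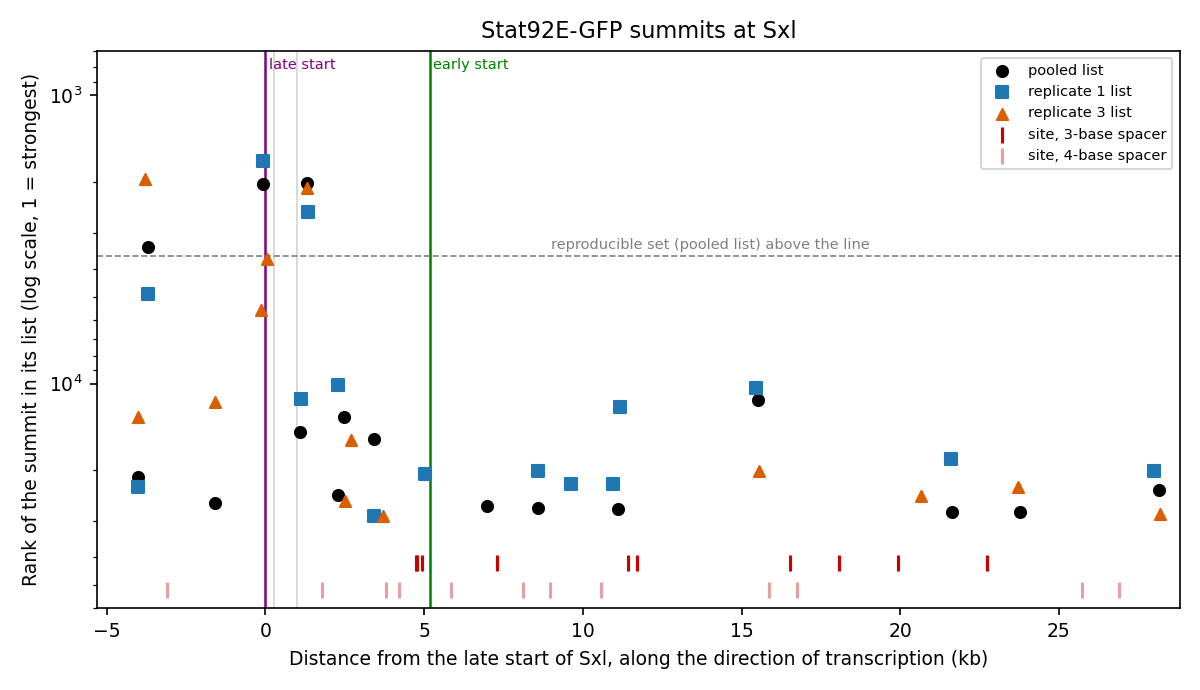
Summits at Sxl by distance from the late start (horizontal axis, kb, transcription runs to the right) and rank in their list (vertical axis, log scale, 1 = strongest); circles are the pooled list, squares replicate 1 and triangles replicate 3. Green and purple lines mark the early and late starts, grey lines the other starts, and ticks at the bottom the 22 STAT sites. Strong summits in all 3 lists lie at the late start, 1297 bp downstream of it and 3712 bp upstream of it (pooled positions), and the only summit next to the early start is the replicate 1 peak of rank 20518.

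The remaining 13 pooled summits of Sxl were weak. The strongest of them, at 7082523 in an intron 15530 bp downstream of the late start, ranked 11398, with ranks of 10342 in replicate 1 and 20137 in replicate 3. One of them, at 7091070, of rank 26547, had no peak over it in either replicate. None of the 4 lists placed a summit inside the skipped exon; the nearest was in replicate 1, at 7088440, with rank 22267.

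The STAT sites of Sxl did not lie under its pooled peaks. The window of Sxl, its span with 5 kb on each side, held 10 sites with a 3-base spacer and 12 with a 4-base spacer, 0.657 per kb, against 0.648 per kb over all arms. None of the 22 lay inside a pooled peak, whereas over the arms 10.7% of 86776 sites did. The 3 reproducible summits of Sxl had no site within 50 bp.

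The sites printed above lie in the stretch from 235 to 440 bp upstream of the early start. They are TTCCGAGAA, centred 249 bp upstream, TTCACAGAA, 391 bp upstream, and TTCTAAGAA, 426 bp upstream. The first lay inside the replicate 1 peak of rank 20518, 104 bp from its summit, and the other sites lay inside no peak of any list. Further upstream, TTCCTTGGAA lay inside the replicate 3 peak of rank 28895. At least 3 sites with a 3-base spacer in the 1000 bp upstream of a gene's most upstream start were found for 70 of 13944 protein-coding genes (0.502%), while 27.9% had at least 1. That background uses most upstream starts and the early start of Sxl is not one, so the 2 are set side by side only as a description.

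The early and late promoters of Sxl also differ in other motifs. In the 300 bp window from 250 bp before to 50 bp after the early start, CAGGTAG was found 1 time, centred 72 bp upstream, and CACGCG or CACGTG, the class of site bound by Hairy and Deadpan repressors, 2 times, 100 and 111 bp upstream. Of the promoter windows of 13945 genes, 1.64% hold CAGGTAG, and 1397 windows hold CACGCG or CACGTG. The same window at the late start held none of these. Neither window held a whole STAT site, the TATCGATA element, the GAGAGAG of GAGA factor, the E-boxes CAGCTG and CAGGTG, or the Runt sequences TGCGGT and TGTGGT. The STAT site TTCCGAGAA, centred 249 bp upstream of the early start, crosses the edge of the early window and was not counted. All motifs were sought on both strands, and CACGTG counts both among E-boxes and in the Hairy and Deadpan class. The summit inside Sxl had a CACGCG match within 50 bp, which 4.53% of reproducible summits had for this class.

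Among genes with 3 reproducible summits, 574 in all besides Sxl, the strongest ranks most like those of Sxl over the pooled, replicate 1 and replicate 3 lists were found at CG4615, CG1801 and Dd. CG4615 had the same ranks as Sxl, because the same summits lie within 5 kb of both genes. The strongest summit of CG1801 ranked 1966 in the pooled list, 1667 in replicate 1 and 2129 in replicate 3, a mean difference of 0.018 in log10 rank over the 3 lists. Dd shares its summits with CG1801 and had the same values.

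The X-linked activators sisA and sc had weaker peaks. sisA (FBgn0003411, X:11321579-11322357) had 3 pooled summits, all more than 2.9 kb upstream of its start and at neighbouring genes. The strongest, at 11326548 in an intron of Gapvd1, ranked 7327 in the pooled list, 13005 in replicate 1 and 5737 in replicate 3. Another, at 11325329, of rank 11431, lay 21 bp from the start of l(1)10Bb. Near the sisA start itself there was only a replicate 1 summit 275 bp upstream, with rank 22850 and a −log10 q-value of 0.527. On the other side of sisA the next pooled summit lay 165829 bp away. Of the 6 STAT sites in its window, 1, TTCCAGTGAA at X:11326757-11326766, lay inside a pooled peak, the one in Gapvd1, and 15 bp from a summit of replicate 3.

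sc (FBgn0004170, X:396060-397497), a proneural gene that also counts X chromosomes, had a summit at its start in all but the reproducible set. The summit at 395982 lay 78 bp upstream of the start, within an intron of CG32816, with a signal of 77.1. It ranked 8118 in the pooled list, 9780 in replicate 1 and 10127 in replicate 3, and the replicate summits lay within 11 bp of it. Its window, printed above, holds CAGGTAG 2 times, once on each strand, and GAGAGAG. None of the 8 STAT sites of the sc window lay inside a pooled peak. The other genes of the achaete-scute complex had no reproducible summit, which 33.3% of the protein-coding genes on X had. The strongest pooled ranks were 29870 for ac, 14637 for l(1)sc and 12330 for ase.

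dpn (FBgn0010109, 2R:8228971-8232330), the autosomal bHLH repressor of Sxl, had its strongest pooled summit 83 bp upstream of its start, at 8232413. That summit ranked 5938 in the pooled list, 4440 in replicate 1 and 16076 in replicate 3, with a signal of 93.3 in the pooled list, so the replicates differed more here than at sc. The strongest replicate 3 summit at dpn was another, at 8236750, of rank 13608. The window at the dpn start also held CAGGTAG. This motif lay within 50 bp of 2 of the 55 pooled summits at the 7 genes, those at the starts of sc and dpn, against 0.7% of 29998 pooled summits; the pair was singled out after the values were seen. One 4-base-spacer STAT site, at 2R:8236432-8236441, lay 22 bp from a pooled summit of rank 15400 upstream of dpn. Just outside the window, a reproducible summit of rank 1824 lay at pnut, 5166 bp from dpn.

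gro (FBgn0001139, 3R:26041736-26049911), the corepressor that bHLH repressors such as Dpn recruit, had the strongest pooled rank of the 7 genes. Its summit at 26042522, in an intron 119 bp upstream of a further gro start, ranked 1491 in the pooled list, 3761 in replicate 1 and 612 in replicate 3, with a pooled signal of 172.2. The summit at 26041817, in the 5′ UTR and 81 bp downstream of the most upstream start, ranked 3449 in the pooled list and 2063 in replicate 1, with a pooled signal of 123.0. Replicate 3 had 2 summits beside it, of rank 4819 at 26041688 and of rank 8310 at 26041902. The replicates thus put the 2 gro summits in opposite order. A 3-base-spacer site, TTCTTTGAA, lay inside the peak of rank 3449 at 3R:26041609-26041617, 200 bp from its pooled summit and 71 bp from the replicate 3 summit of rank 4819. Neither gro summit had a STAT site within 50 bp.

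The best replicate 3 rank listed for gro, 52, comes from another gene's peak at the edge of the window. This strong peak lies at E(spl)m7-HLH, a Notch target gene next to gro. Its pooled summit, at 26036719 and rank 43, fell 5017 bp from gro and so outside the window, while the replicate 3 summit, at 26036747, fell inside. A 4-base-spacer site, TTCGCTCGAA, lay at 3R:26036754-26036763, 7 bp from the replicate 3 summit and 35 bp from the pooled one. A second summit just outside the window, at 26055387, ranked 2153 in the pooled list and lay 5476 bp from gro, nearest to the start of Cmpk.

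**Figure D3:**
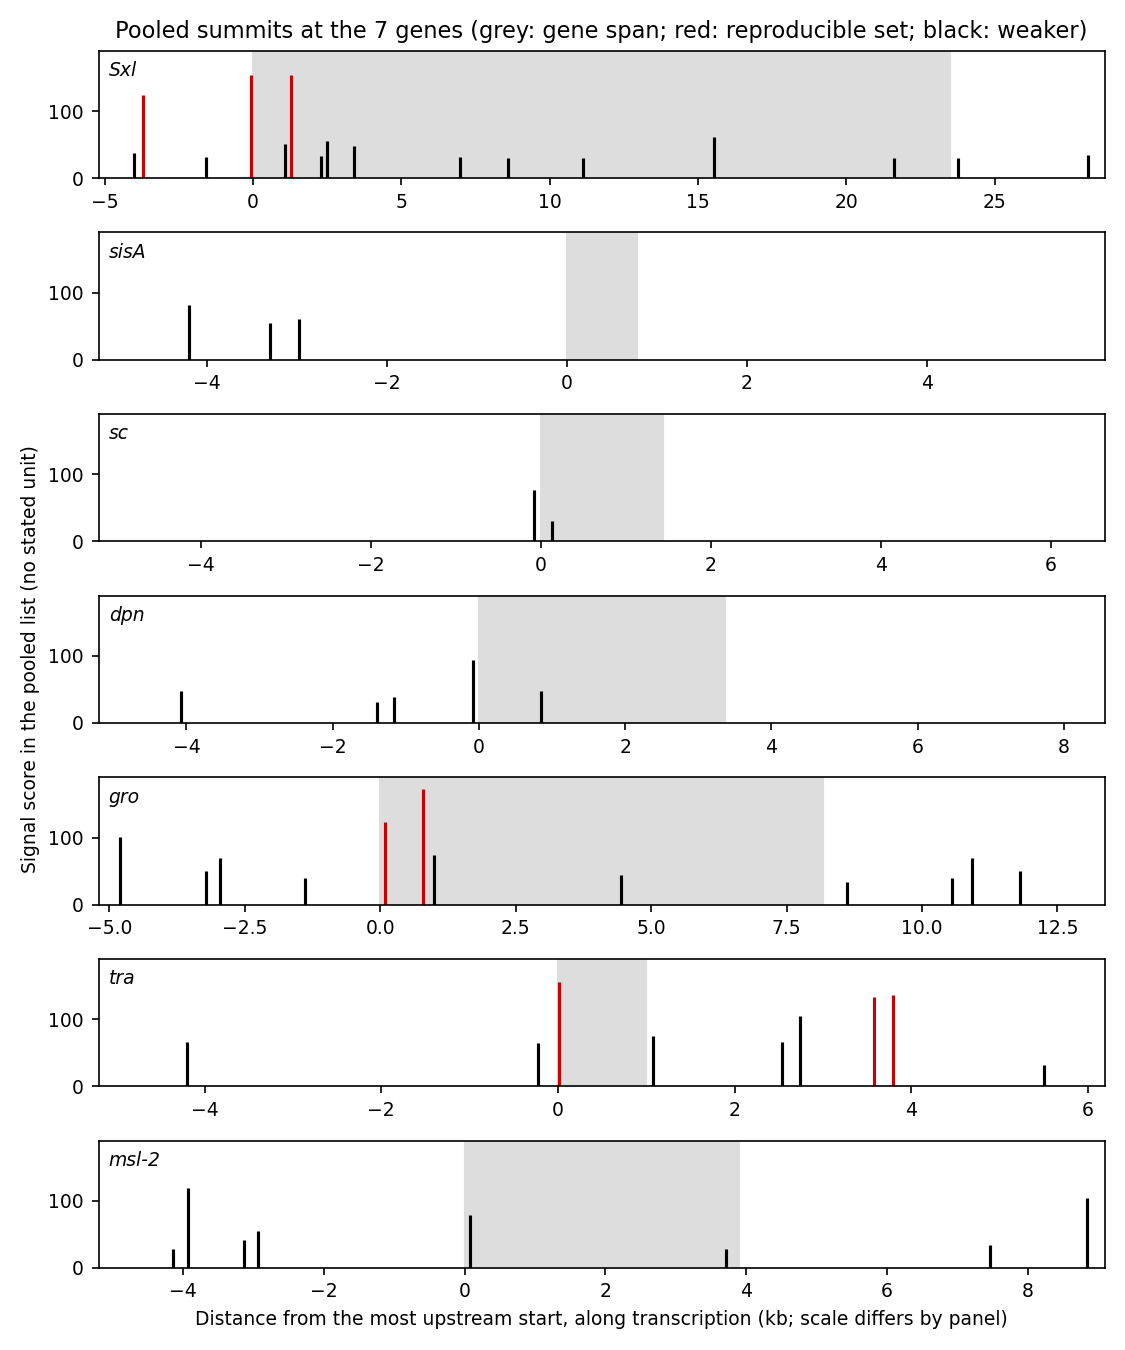
Signal score of every pooled summit (vertical axis, no stated unit) by distance from the most upstream start of each gene (horizontal axis, kb, transcription to the right, scale differing between panels), with the gene span in grey, reproducible summits in red and weaker ones in black. Summits stand within 100 bp of the most upstream start of each gene except sisA, and the signal at them ranges from 77.1 at sc to 155.6 at tra.

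Downstream of Sxl, tra had a strong summit at its start. tra (FBgn0003741, 3L:16590059-16591050), whose RNA is a splicing target of Sxl, had a reproducible summit at 16591035, 15 bp downstream of the start. It ranked 1937 in the pooled list, 1962 in replicate 1 and 2369 in replicate 3, with a pooled signal of 155.6. A 4-base-spacer STAT site, TTCCGATGAA, lay at 3L:16591039-16591048, 4 bp from the summit, and contained all 3 bases of the annotated start codon of tra. A 3-base-spacer site, TTCGTCGAA, lay 84 bp upstream of the tra start at 3L:16591130-16591138, 95 bp from the pooled summit and 28 bp from a summit of replicate 3. Both sites lay inside the same peak in all 3 lists.

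The other 2 reproducible summits in the tra window belong to a neighbour. They lay at 16587259 and 16587472, 30 bp and 183 bp from the start of CG32163 and more than 2.5 kb beyond the end of tra, with pooled ranks of 2707 and 2851. Replicate 1 had summits 32 bp and 18 bp from them, with ranks of 2546 and 4896. Replicate 3 had 2 summits as well, of rank 3481 at 16587426, between them, and of rank 10893 at 16587625. The site TTCCTGCGAA, at 3L:16587503-16587512, lay 31 bp from the second.

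msl-2 (FBgn0005616, 2L:3462218-3466112), translated in males only, had no reproducible summit. The summit at its start, at 3466034 in the 5′ UTR and 78 bp downstream of the start, ranked 7932 in the pooled list, 9104 in replicate 1 and 8506 in replicate 3, with a signal of 78.2. The strongest summit in the window was at another gene: 3470048, 44 bp from the start of Pif1, with a pooled rank of 3716 and a signal of 118.9, just under the minimum of the reproducible set, and ranks of 5848 in replicate 1 and 3230 in replicate 3. The next, at 3457271, of rank 4815, lay 31 bp from the start of Sec5. No pooled summit in the msl-2 window had a STAT site within 50 bp.

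Position near a start was common among the 7 genes. Of their 13 annotated starts, 9 had a pooled summit within 250 bp, 69.2% against 43.6% of all distinct protein-coding starts. A reproducible summit within 250 bp was found at 4 of the 13, 30.8% against 14.0%. By gene, 6 of 7 had a pooled summit within 250 bp of a start, all but sisA, against 47.8% of protein-coding genes. Starts of 1 gene can share a summit, so the 13 starts are not independent. The replicates did not differ in this count: each had a summit within 250 bp of 10 of the 13 starts, although at Sxl these were 3 starts in replicate 1, the early one included, and 2 in replicate 3.

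**Figure D4:**
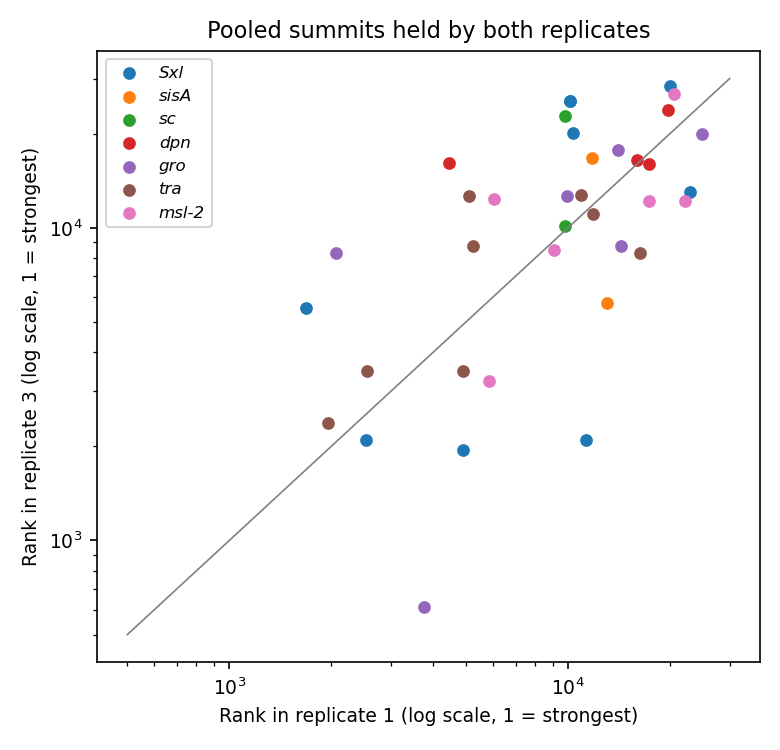
Rank in replicate 3 (vertical axis) against rank in replicate 1 (horizontal axis), both on log scales with 1 as the strongest, for the 37 pooled summits of the 7 genes with a peak over them in both replicates; where several peaks of a replicate cover a summit, the one with the nearest summit is shown. The line marks equal ranks. Points of Sxl, gro and tra reach the lower left, and the one of dpn at rank 4440 in replicate 1 lies far above the line. Some neighbouring summits share a replicate peak, so the points are not all independent.

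None of the reproducible and pooled summits of these genes had a STAT site with a 3-base spacer within 50 bp. Among the 8 reproducible summits, 2 had a site within 50 bp, against 14.8% of all reproducible summits, and both, the one at the tra start and the one at CG32163, were of the 4-base-spacer kind. Among the 55 pooled summits 3 had one, all with a 4-base spacer. Of 29998 pooled summits, 4.61% had a 3-base-spacer site within 50 bp and 4.17% a 4-base-spacer site. Taken the other way round, 11 of the 70 sites in the 7 windows lay inside a pooled peak, 15.7%, against the 10.7% over all arms given above. They were found at gro (3), tra (3), msl-2 (3), sisA (1) and dpn (1). The density of sites at the other 6 genes ran from 0.546 per kb at tra to 0.699 per kb at sc.

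**Figure D5:**
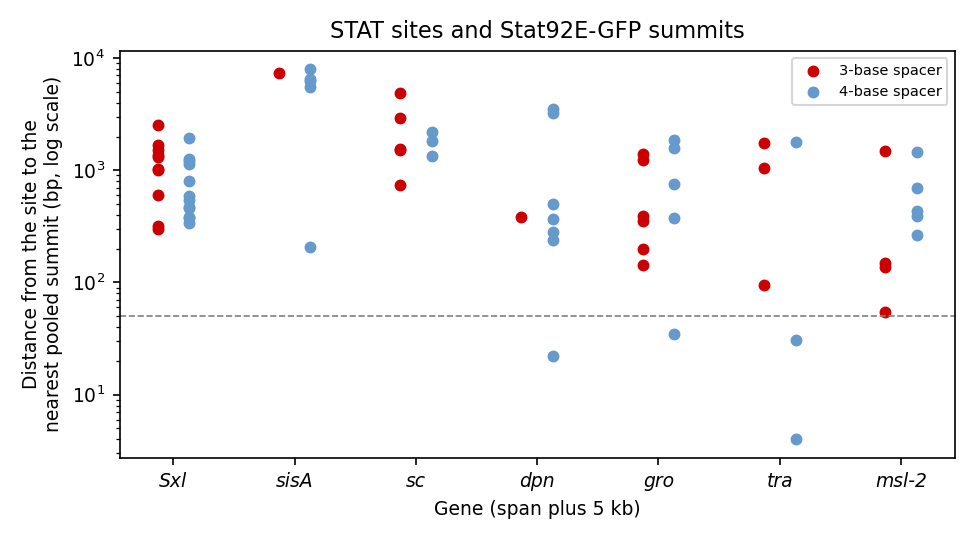
Distance from each of the 70 STAT sites to the nearest pooled summit (vertical axis, bp, log scale), by gene; red points have a 3-base spacer and blue points a 4-base spacer, and the dashed line is at 50 bp. The 4 points under the line, at dpn, gro and tra, all have a 4-base spacer, and the one at gro belongs to the E(spl)m7-HLH peak whose summit is just outside the window.

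Wider lists of the pathway were read in the same way, by the strongest summit in the span or within 5 kb. The lists were chosen with earlier results of these data known, so their shares are descriptions only. Such a summit can lie at a neighbouring gene, and the ranks below do not tell which gene's start is nearest. Of 58 genes matched to the annotation, 25 had a reproducible summit in the span or within 5 kb (43.1%), and without sisA, sc, dpn, gro, tra and msl-2 it was 23 of 52 (44.2%), near the background of 42.5%. Sxl itself is in none of the lists, while the RNA genes lncRNA:roX1 and lncRNA:roX2 are, although the background covers protein-coding genes only. None of the 4 X-linked signal element genes had a reproducible summit, upd1 and run included, against 33.3% of the protein-coding genes on X. The strongest pooled rank was 4059 for upd1, which encodes the ligand of the pathway, and 8937 for run, which encodes a Runt-domain activator.

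Of 11 maternal and autosomal genes linked to the control of Sxl, 7 had a reproducible summit (63.6%, against 42.5% of all protein-coding genes). The list is broad, and not every gene in it is an established regulator of Sxl. The strongest were at the JAK/STAT genes dome, the receptor, with rank 4 in the pooled list, 19 in replicate 1 and 2 in replicate 3, and Stat92E, with 16, 29 and 17 in the same order. The zinc finger gene her ranked 250, hry, the hairy repressor, 961, Su(var)3-9, a histone methyltransferase gene, 1606, and zld, which encodes Zelda, 2121 in the pooled list, and gro made the seventh. The kinase gene hop (4808), da (5436) and emc (3915) had pooled summits under the reproducible set, as dpn did.

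Splicing cofactors of Sxl and genes of the m6A methylation machinery, which acts on Sxl RNA, had reproducible summits at 8 of 14 (57.1%, against the same 42.5%). These were Hakai (pooled rank 252), Mettl14 (952), fl(2)d (1614), Mettl3 (1916), Ythdc1 (1991), U2af50 (2049), nito (2782) and snRNP-U1-70K (3073). Hakai, a ubiquitin ligase of the methylation complex, was the strongest also in both replicates, with rank 390 in replicate 1 and 89 in replicate 3.

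Of 10 genes linked to sexual differentiation, 4 had a reproducible summit (against 42.5% of all protein-coding genes). They were tra, bab2 (842), bab1 (1501) and the homeotic gene Abd-B (3265), and not all 10 act below Sxl. At the sex-specifically spliced gene dsx the strongest rank was 11157 in the pooled list, 5477 in replicate 1 and 3016 in replicate 3. At fru, also sex-specifically spliced, it was 28674 in the pooled list, 2439 in replicate 1 and 23648 in replicate 3. At tra2, the partner of tra, it was 15990 in the pooled list, 3829 in replicate 1 and 2736 in replicate 3. At these 3 genes the lists thus differed widely. The yolk protein genes Yp1 and Yp2 had no summit in any list. Of 11 dosage compensation genes, 3 had one (27.3%, against 42.5%): JIL-1, a histone kinase gene, with rank 100, mle, an RNA helicase gene, with 1187, and Unr, the partner of Sxl on msl-2 RNA, with 2599. The RNA genes lncRNA:roX1 and lncRNA:roX2, counted among the 11 though the 42.5% covers protein-coding genes only, had strongest pooled ranks of 6762 and 4831. Of 5 matched germline genes linked to Sxl, 3 had one (against 42.5% of all protein-coding genes), bam (658), ovo (1293) and Phf7 (3058).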

How the data were processed

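Chromatin immunoprecipitation with sequencing (ChIP-seq) of eGFP-tagged Stat92E was analysed from 2 biological replicates. Per the labels, both belong to 1 group of embryos and the build is dm6. Per the submitted file lists, the authors derived each replicate list from its alignments and a control shared by both replicates, the pooled list from both replicates, and the reproducible set by IDR (irreproducible discovery rate) thresholding. The sources used here name no aligner, peak caller, caller settings or IDR threshold. The deposited signal is a score with no stated unit; the deposited −log10 q-value and summit offset were used as given, and the peaks called on pooled replicates give no spread between replicates.

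Ranks were computed from the score within each list, including 2 mitochondrial peaks of the pooled list. Gene models came from Ensembl BDGP6.54.115 and sequence from RefSeq, Release 6; all 7 genes had the same span in both annotations and 0 peaks ended past their chromosome. A replicate peak matches a pooled summit where its interval covers it; of several, the one with the nearest summit was taken. STAT sites and other motifs were sought within 50 bp of a summit. Counting and motif search were tested on simulated data. Python 3.11.15, pandas 2.3.3, numpy 2.4.6 and matplotlib 3.10.9 were used. No test was made, since there is 1 group. The main counts stand beside the same over all genes, starts, sites or summits. Counts from the replicate lists, matches between lists and the count by q-value have no such background.

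The 7 genes, the gene lists and the rule for named genes were chosen with earlier results of these data known. The rule named the 7 genes, the genes nearest to their reproducible summits, list genes with a reproducible summit, and the 3 genes with ranks most like those of Sxl; other genes were named after their values were seen. The gene nos was not matched. Alternatives changed the window, the peak set, the assignment, the site and the replicates.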

Additional observations from a re-analysis of the deposited data

How the results depend on the processing

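The number of the 7 genes with a reproducible summit, 3, was 1 (gro) with the stronger 1801 peaks of the set. It was 5 with 2 times as many strongest pooled peaks, which added dpn and msl-2. At msl-2 the added summits were those nearest to the starts of Pif1 and Sec5, not the one at its own start. The number of genes ranged from 3 to 4 over the lists of single replicates cut to the same length. It was 3 or 4 under the other windows, with overlapping intervals and with assignment to the nearest start. Their 8 summits became 4 with the gene span only, 5 with 2 kb, 15 with 10 kb, 1 with the stronger 1801, 13 with 2 times as many pooled peaks and 5 with assignment to the nearest start, and ranged from 5 to 8 over single replicates. The 2 summits with a STAT site stayed 2 within 100 bp, became 3 within 250 bp and in the whole peak interval, 1 within 25 bp and 0 with the 3-base spacer only; either single replicate gave 1. Leaving out a replicate, the strongest rank ranged from 1689 to 1944 at Sxl, 5737 to 9983 at sisA, 9780 to 10127 at sc, 4440 to 13608 at dpn, 52 to 2063 at gro, 1962 to 2369 at tra and 3230 to 5848 at msl-2. Some of these summits lie nearest to the start of another gene. The 52 at gro is the E(spl)m7-HLH peak, and the strongest replicate 3 summit nearest to a gro start ranked 612. Both msl-2 values are at Pif1, and the summit at the msl-2 start ranked 9104 in replicate 1 and 8506 in replicate 3. Both sisA values, 1944 at Sxl and 13608 at dpn are also nearest to other genes. Inside the gene span only, the strongest pooled rank was 27183 at sc, 15898 at dpn and 7932 at msl-2, and sisA gave no value, having no summit there. The distance from the early start of Sxl to the nearest summit, 3873 bp in the reproducible set, ranged from 141 to 1477 bp in the full 30000-peak lists of single replicates, so both the replicate and the length of the list changed; at the late start it was 79 bp and ranged from 54 to 85 bp. No paired analysis was possible because there is 1 group and no test. Read depth is unknown, so it cannot be said how weak a peak these lists could hold.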

Other observations

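At tra2 and dsx the replicate lists held stronger peaks than the pooled list. Among the 7206 strongest peaks of each replicate, 5249 of replicate 1 overlapped one of replicate 3, and 8 of these had no pooled peak over them. One, on 2R at 14605191, lies in the tra2 window, 106 bp from the start of CG12868, and ranked 3829 in replicate 1 and 2736 in replicate 3. Another, on 3R at 7963040, lies 254 bp from a start of dsx and ranked 5477 in replicate 1. The replicate 3 peak that overlaps it ranked 3016, but its summit lies 286 bp away and it does not cover the replicate 1 summit. The pooled ranks given for tra2 and dsx, 15990 and 11157, therefore come from other summits. At fru the replicate 1 summit of rank 2439 stood beside a strongest rank of 23648 in replicate 3 and 28674 in the pooled list. These peaks were singled out after the values were seen, and the cause was not tested.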
